A study of Danio rerio with 4 samples.

Results

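The genes described here encode ligands, receptors, inhibitors, transducers and targets of the Notch, BMP and TGF-beta signalling pathways in the adult zebrafish gut. Membership was set by a pattern of gene symbols, which 115 of the 14781 genes in the count table match. RNA-seq libraries were made from polyadenylated RNA of the gut, taken whole, of 2 adult zebrafish (Danio rerio) homozygous for irf8 st95, a mutant allele of irf8, and of 2 adult heterozygous carriers, all untreated. The heterozygotes carry 1 mutant copy as well, so no group here is wild type; the labels give neither sex nor batch. irf8 encodes a transcription factor that macrophages need to develop, and the comparison asks which gut transcripts differ between fish that lack and fish that keep an unmutated copy.

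Notch is a receptor that a Delta or Jagged ligand on a neighbouring cell activates. Metalloproteases and the gamma-secretase complex then release its intracellular part, which joins the DNA-binding protein Rbpj and switches on repressor genes of the her, hey and hes families; in the gut epithelium this signal holds cells back from the secretory fates. BMP, activin and TGF-beta ligands bind pairs of type I and type II receptor kinases, which phosphorylate Smad proteins. BMP receptors act mainly through Smads that induce Id genes, and Smad6, Smad7 and the Smurf ligases limit the signal. In the gut, BMP and TGF-beta signals pass between the epithelium and the connective tissue and vessels beneath it.

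The 4 libraries held 6350840 to 10391963 counts each, spread over 11059 to 12486 detected genes. edgeR's quasi-likelihood test called 0 of 9701 tested genes (0%) at an adjusted p of 0.05, with 628 genes (6.47%) below an unadjusted p of 0.05, and DESeq2 called 55 of 10783 (0.51%). irf8 itself had 25 and 25 counts in homozygotes, against 30 and 50 in heterozygotes; since the allele need not remove the transcript, these counts do not check the labels. Heterozygous replicate 2 stood apart in several tissue marker lists, though not in all. Summed levels of 19 pancreas marker genes were 36982 and 3538 CPM (counts scaled to library size, with TMM normalisation) in homozygotes, against 13282 and 323294 CPM in heterozygotes. For 11 endothelial markers the sums were 67.5 and 30.3 CPM in homozygotes, against 74.1 and 211 CPM in heterozygotes, and all 11 had counts in every library. For 10 stromal markers they were 220 and 141 CPM in homozygotes, against 248 and 1149 CPM in heterozygotes, with pdgfrb and fbln1 at 0 in all 4 libraries. Smooth muscle markers (8 genes) summed to 2751 and 355 CPM in homozygotes, against 292 and 1633 CPM in heterozygotes, so there homozygous replicate 1 was highest. All 10 enterocyte markers had counts in every library. They summed to 57283 and 53710 CPM in homozygotes, against 98167 and 32963 CPM in heterozygotes, so the labelled tissue was present in each library. Macrophage markers (10 genes) summed to 217 and 498 CPM in homozygotes, against 779 and 1066 CPM in heterozygotes, and T and NK cell markers (10 genes) to 125 and 54.8 CPM in homozygotes, against 11.4 and 26.1 CPM in heterozygotes.

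**Figure D1:**
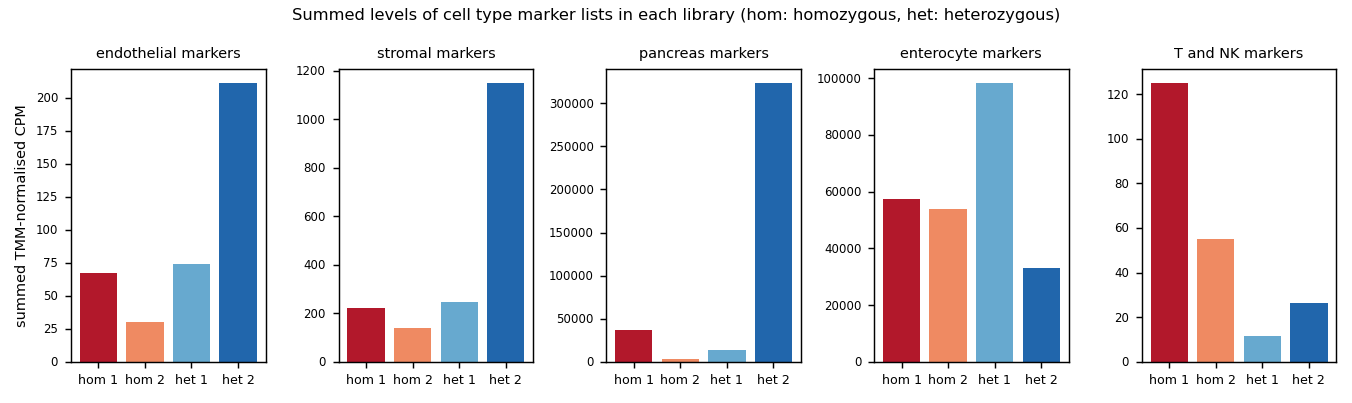
Summed TMM-normalised CPM of 5 lists of cell type marker genes (vertical axis, starting at 0) in each of the 4 libraries (horizontal axis; homozygous replicates 1 and 2, then heterozygous replicates 1 and 2). Heterozygous replicate 2 has the highest endothelial (211 CPM), stromal (1149 CPM) and pancreas (323294 CPM) sums.

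Of the 115 pathway genes, 102 had at least 1 count in some library and 66 passed the filter on low counts and were tested. Among the 66, 45 reached the filter's level in all 4 libraries, 6 in both heterozygous but not both homozygous libraries, 6 in both homozygous but not both heterozygous libraries, and 9 in both libraries of neither genotype. No pathway gene was called, 0 of 66 by edgeR and 0 by DESeq2. In edgeR's test 3 of the 66 (acvrl1, bmp16 and id1) were below an unadjusted p of 0.05, beside 6.47% of all tested genes. Of these 3, bmp16 reached the filter's level in neither homozygous library. The log2 fold change, homozygous minus heterozygous, was above 0 for 24 and below 0 for 42 of the 66, with a median of -0.20; over all tested genes 46.7% were above 0 and the median was -0.05. Without heterozygous replicate 2 the count turned: 47 of 68 tested members were above 0 and their median was 0.33, beside 53.2% and a median of 0.08 over all genes tested then. Both homozygous libraries lay above both heterozygous ones for 6 of the 66 members (9.09%) and below them for 11 (16.7%), where 19.9% and 19.3% of all tested genes did so. Neither share exceeds its background. Heterozygous replicate 2 had the highest level of the 4 libraries for 34 of the 66 members (51.5%), and for 26.9% of all tested genes. In whole-gut RNA, fewer cells of a type and less RNA per cell cannot be told apart, and this holds for each difference below.

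**Figure D2:**
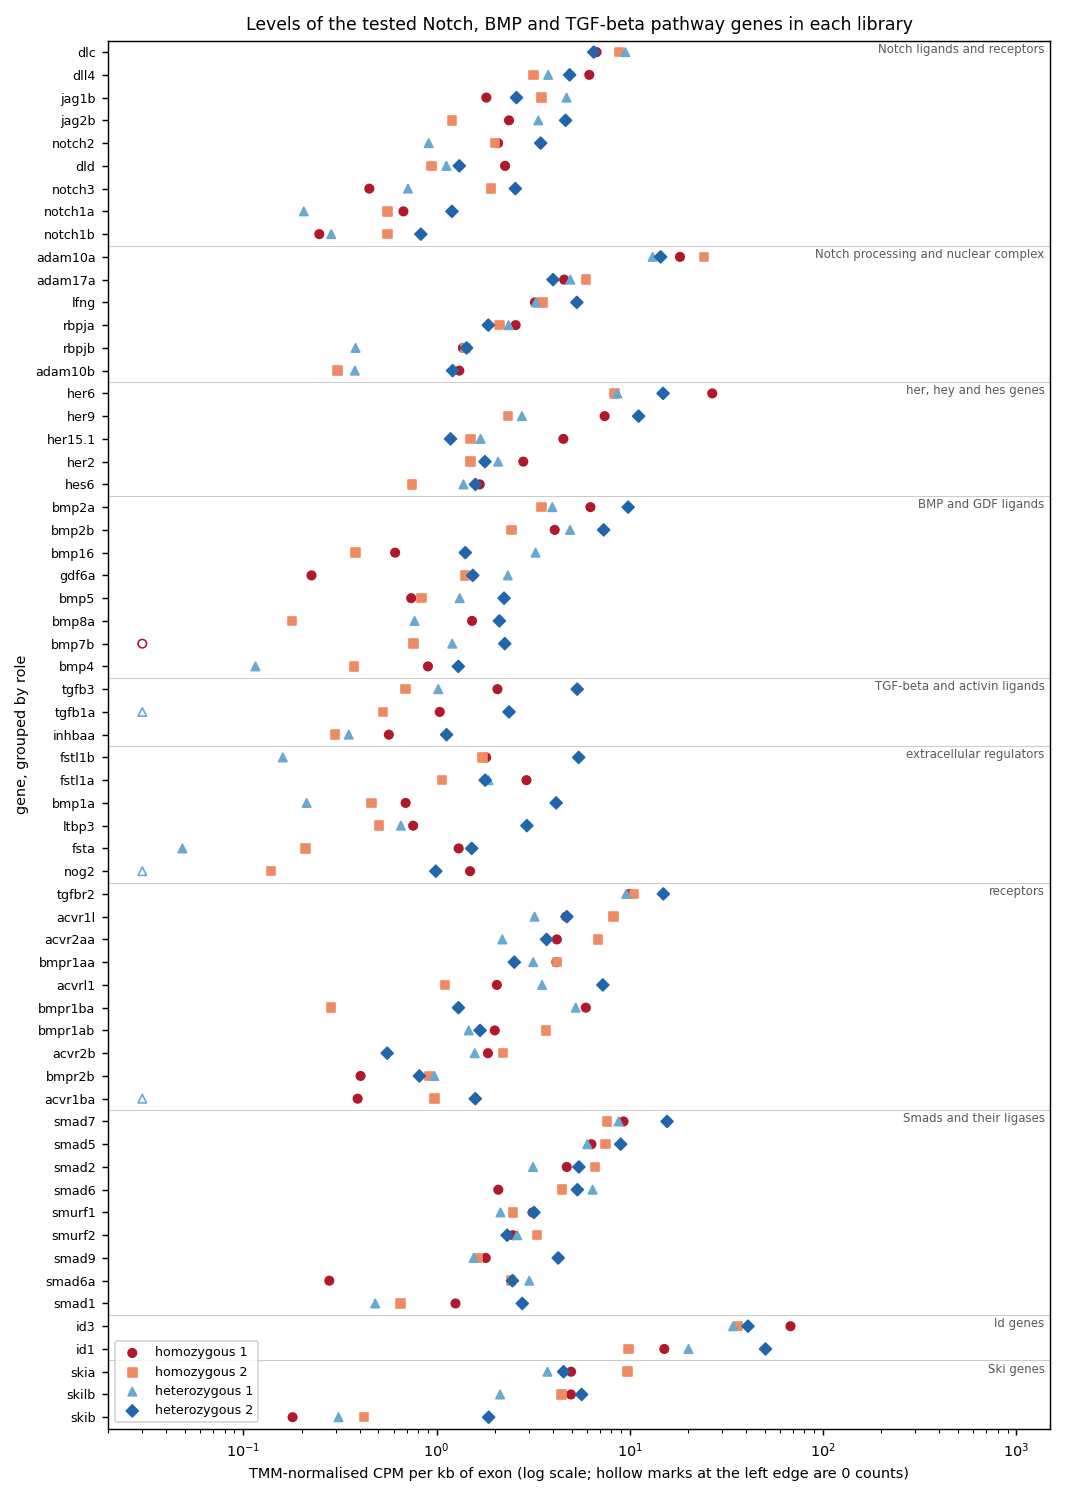
Level of the 61 tested pathway genes other than those matched by name only (rows, grouped by role and ordered by mean level) as TMM-normalised CPM per kb of exon on a log axis, with 1 mark for each of 2 homozygous and 2 heterozygous libraries; hollow marks at the left edge are 0 counts. The Id gene id3 and the protease gene adam10a are among the highest, and dark blue diamonds (heterozygous replicate 2) often lie farthest right.

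Among the Notch ligands and receptors, 9 of 11 genes were tested, 2 with a log2 fold change above 0 and 7 below, and 1, jag2b, had libraries that did not overlap (11.1%, under the 19.3% of all tested genes with both homozygous libraries lowest). jag2b encodes a Jagged ligand (chromosome 20, 21491523 to 21575945, plus strand, 26 exons; coordinates are danRer10 throughout). It had 12.9 and 6.55 CPM in homozygotes, against 18.3 and 25.3 CPM in heterozygotes. Its log2 fold change was -1.17 ± 0.47 (SE), with an adjusted p of 0.699. Leaving out each library in turn gave -1.70 to -0.76 (-0.92 without heterozygous replicate 2). Because the groups do not overlap, leaving out 1 library could hardly turn the sign of jag2b. The endothelial marker pecam1 (5.48 and 2.95 CPM in homozygotes, against 13.8 and 17.8 CPM in heterozygotes) was low and high in the same libraries as jag2b. It is 1 of 11 endothelial markers, of which 5 had both homozygous libraries lowest and 6 had overlapping libraries. The part of vessels in the jag2b difference was not tested.

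Per kb of exon the Delta ligand gene dlc had the highest mean level of this group, 7.87 CPM per kb over the 4 libraries. It is known in fish embryos for somite formation. dlc had 24.0 and 31.3 CPM in homozygotes, against 33.8 and 23.2 CPM in heterozygotes, which overlap, and a log2 fold change of -0.04 ± 0.38 (SE). The receptors followed at lower levels per kb: notch2 at 2.11, notch3 at 1.41, notch1a at 0.659 and notch1b at 0.480 CPM per kb. In each of the 4 receptor genes heterozygous replicate 2 was the highest library. notch3, a receptor of vessel wall and progenitor cells, had 24 and 164 counts in homozygotes, against 33 and 185 counts in heterozygotes; it was chosen for mention after its values were seen. Replicate 2 was far above replicate 1 in both genotypes, and the log2 fold change of notch3 was smaller than its error (-0.47 ± 0.87, SE).

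The 6 genes of Notch processing and of its nuclear complex were all tested, 4 above 0 and 2 below. adam10a, which encodes the metalloprotease that makes the first ligand-induced cut in Notch, was by far the most abundant of them at 17.5 CPM per kb. It lies on chromosome 7 (30137921 to 30220880, minus strand, 16 exons). It had 80.8 and 108 CPM in homozygotes, against 58.4 and 64.2 CPM in heterozygotes, and the libraries did not overlap. The log2 fold change was 0.62 ± 0.37 (SE) with an adjusted p of 0.706, and stayed between 0.40 and 0.84 without each library. adam17a, a related sheddase, lfng, which adds sugars to Notch, the Rbpj genes rbpja and rbpjb, and adam10b had overlapping libraries and log2 fold changes from -0.35 to 0.60.

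Of 21 her, hey and hes genes, the transcriptional targets, 5 were tested, and 6 had no count in any library. The 5 tested genes divided as 3 above 0 and 2 below, and all had overlapping libraries. her6, a relative of mammalian Hes1, had the highest level, 14.6 CPM per kb (chromosome 6, 36573191 to 36574874, minus strand, 4 exons). It had 36.0 and 11.3 CPM in homozygotes, against 11.6 and 20.0 CPM in heterozygotes, so homozygous replicate 1 alone was high. The log2 fold change of her6 was 0.57 ± 0.64 (SE), and without homozygous replicate 1 it was -0.46. her15.1, a Hes5 relative, had 5.03 and 1.66 CPM in homozygotes, against 1.88 and 1.31 CPM in heterozygotes, with a log2 fold change of 1.06 ± 0.84 (SE). Without homozygous replicate 1 that of her15.1 was 0.09. Its near-identical neighbour her15.2 had 1 to 7 counts per library, and reads shared by the pair can be lost or split between them, so both values are uncertain.

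Other genes that act in the Notch pathway, taken from lists chosen by function, included the parts of gamma-secretase. Of 16 tested genes of secretase and ligand trafficking 0 were called, with 10 above 0 and 6 below. psen2, which encodes a presenilin, had 18.5 and 28.9 CPM in homozygotes, against 34.3 and 34.9 CPM in heterozygotes, while aph1b, another secretase subunit, had 50.5 and 44.9 CPM in homozygotes, against 91.2 and 66.2 CPM in heterozygotes. In both genes the homozygous libraries lay under the heterozygous ones, with log2 fold changes of -0.54 ± 0.37 (SE) for psen2 and -0.72 ± 0.37 for aph1b. They are the only 2 such genes of the 16 (12.5%, under the 19.3% of all tested genes). As many, 2, had both homozygous libraries highest (12.5%, under 19.9%). The ubiquitin ligase gene itchb was at 1.19 ± 0.64 with overlapping libraries, and 0.20 without homozygous replicate 2.

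Of 10 tested genes that modify Notch by glycosylation or modulate it, 7 were above 0 and 3 below, with 0 called. pofut1, the O-fucosyltransferase of Notch, was at 0.64 ± 0.39 (log2 fold change ± SE) and dtx1, a Deltex gene, at 1.48 ± 0.94, both with non-overlapping libraries; dtx1 was under the filter's level in both heterozygous libraries and entered the test through the homozygous ones. egfl7, which endothelium secretes, was at -0.93 ± 0.68 and rfng, a Fringe glycosyltransferase gene, at -0.44 ± 1.08, and for both the libraries overlapped. Without heterozygous replicate 2 the value of egfl7 was -0.18 and that of rfng 1.71. Of 9 nuclear cofactors 4 were above 0 and 5 below. The Groucho-family corepressor gene tle2 had 1.04 and 0.738 CPM in homozygotes, against 3.76 and 7.22 CPM in heterozygotes. Its log2 fold change was -2.63 ± 0.73 (SE, adjusted p 0.699). Both homozygous libraries lay under the filter's level, which is 1.27 CPM before TMM scaling and so is not on the scale of the CPM printed here. Thus tle2 entered the test through the heterozygous libraries and was bound to differ. Its relative tle3b was at -0.91 ± 0.51, and the corepressor gene ctbp2a at 0.52 ± 0.87.

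Among transcription factors of gut lineage choice that act downstream of or beside Notch, 9 were tested, 7 above 0 and 2 below. cdx1b, an intestinal homeobox factor, had 35.5 and 94.2 CPM in homozygotes, against 22.2 and 10.8 CPM in heterozygotes (log2 fold change 1.98 ± 0.63, SE). cdx4, a factor of the hind body and posterior gut, had 15.7 and 21.3 CPM in homozygotes, against 40.1 and 35.7 CPM in heterozygotes (-1.03 ± 0.35). Neither pair of groups overlapped, and neither gene was called (adjusted p 0.699 for both). With no overlap, leaving out 1 library could hardly turn either sign, and none did. cdx1b was lowest in heterozygous replicate 2, where the enterocyte marker sum was lowest too, and cdx1b is itself 1 of those markers. In heterozygous replicate 1 that sum was the highest (98167 CPM), and cdx1b was lower there than in either homozygous library. Of the 10 enterocyte markers 7 were above 0 and 3 below (30%, beside 53.3% of all tested genes), with a median log2 fold change of 0.86. Both homozygous libraries were highest in 4 of the 10 (40%, beside 19.9% of all tested genes) and lowest in 1 (10%, beside 19.3%). The part of enterocytes in the cdx1b value was not tested. sox4b was at 0.73 ± 0.37 with non-overlapping libraries, and sox9b, a progenitor factor, at -0.31 ± 0.73 with overlapping ones.

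Of the 18 BMP and GDF ligand genes 8 were tested. Each of the 8 had a log2 fold change below 0, beside 53.3% of all tested genes, with a median of -1.04. For 5 of them (bmp16, bmp2b, bmp5, bmp7b and gdf6a) the higher homozygous library was still under the lower heterozygous one. These 5 are 62.5% of the 8, beside 19.3% of all tested genes. The filter acted on this share and on the count of 8 below 0. In 3 of the 8 all 4 libraries reached the filter's level. bmp16, bmp7b and gdf6a reached it in both heterozygous but not both homozygous libraries. bmp16 reached it in neither homozygous library, so it entered the test through its higher group and was bound to differ. bmp7b and gdf6a also reached it in homozygous replicate 2. Of 10 ligand genes not tested, 3 had no count, 6 had a lower and 1 a higher mean level in homozygotes than in heterozygotes. Heterozygous replicate 2 was the highest library for 6 of the 8, and without it 5 of 8 were below 0: bmp16, bmp7b, gdf6a, bmp5 and bmp2b. The other 3, bmp2a, bmp4 and bmp8a, then had log2 fold changes of 0.28, 2.39 and 0.09.

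bmp16 encodes a fish ligand related to BMP2 and BMP4 (chromosome 18, 48799227 to 48813920, plus strand, 3 exons). It had 8 and 8 counts in homozygotes, against 37 and 25 counts in heterozygotes. That is 1.18 and 0.738 CPM in homozygotes, against 6.32 and 2.74 CPM in heterozygotes, a log2 fold change of -2.23 ± 0.80 (SE, adjusted p 0.699). Unlike most of the ligands, bmp16 was highest in heterozygous replicate 1, and its value was -2.72 without heterozygous replicate 2 and -1.48 without heterozygous replicate 1. bmp2b (chromosome 20, 45989453 to 45995172, plus strand, 3 exons), known for ventral patterning of the embryo, had 6.96 and 4.15 CPM in homozygotes, against 8.36 and 12.5 CPM in heterozygotes. The bmp2b difference was -0.92 ± 0.50 (SE) on the log2 scale, and between -1.30 and -0.59 without each library. bmp5 (chromosome 13, 1741478 to 1775444, plus strand, 7 exons) had 1.63 and 1.85 CPM in homozygotes, against 2.90 and 4.92 CPM in heterozygotes. For bmp5 the log2 fold change of -1.17 ± 0.68 (SE) was -0.74 without heterozygous replicate 2.

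bmp2a had the highest level among the ligands, 5.88 CPM per kb, followed by bmp2b at 4.69. It had 7.26 and 4.06 CPM in homozygotes, against 4.61 and 11.4 CPM in heterozygotes, which overlap (log2 fold change -0.51 ± 0.63, SE). The remaining ligands lay between 0.672 CPM per kb for bmp4 and 1.41 for bmp16 where tested. bmp7b had 0 counts in homozygous replicate 1, where a count of 0 allows up to 0.444 CPM, and 14 in replicate 2, against 12 and 35 counts in heterozygotes. gdf6a had 4 and 40 counts in homozygotes, against 36 and 37 counts in heterozygotes, so homozygous replicate 1 alone was far below the others (6.15 and 4.05 CPM in heterozygotes; 3.69 CPM in homozygous replicate 2). Over all tested genes 19.3% had both homozygous libraries lowest. Of the 5 such ligands 3 reached the filter's level in both heterozygous but not both homozygous libraries, so nothing is read from their share. No test was made of the group.

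Of the TGF-beta and activin ligand genes, 3 of 6 were tested: tgfb3, tgfb1a and inhbaa. All 3 had a log2 fold change below 0 and overlapping libraries, with heterozygous replicate 2 highest in each. tgfb3 (chromosome 17, 51987804 to 52020631, minus strand, 7 exons) had 4.15 and 1.38 CPM in homozygotes, against 2.05 and 10.7 CPM in heterozygotes. On the log2 scale tgfb3 differed by -1.24 ± 0.97 (SE), and 0.40 without heterozygous replicate 2. The stromal collagen gene col1a1a, at 59.4 and 36.8 CPM in homozygotes, against 65.9 and 322 CPM in heterozygotes, was likewise highest in that library. All 7 tested stromal markers were below 0, beside 53.3% of all tested genes, with a median log2 fold change of -1.91. In 6 of the 7 (85.7%, beside 19.3% of all tested genes) both homozygous libraries were lowest, unlike in the 3 ligand genes. The part of connective tissue in the ligand values was not tested.

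Extracellular regulators of the ligands, such as Noggin, Follistatin, Gremlin and the latent TGF-beta binding proteins, were low: 10 of 16 genes were not tested and 3 had no count at all. Of the 6 tested 2 were above 0 and 4 below, and none had non-overlapping libraries. ltbp3, which holds latent TGF-beta in the matrix (chromosome 5, 36917647 to 36985316, plus strand, 30 exons), had 4.15 and 2.77 CPM in homozygotes, against 3.58 and 16.1 CPM in heterozygotes. Heterozygous replicate 2 alone was high, and the log2 fold change of ltbp3 was -1.52 ± 0.80 (SE) with it and -0.07 without. fstl1b, a follistatin-like gene, had 13 and 20 counts in homozygotes, against 1 and 53 counts in heterozygotes. Its value of -0.69 ± 1.31 (SE) was 3.34 without heterozygous replicate 2, which then rests on a library with 1 count.

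**Figure D3:**
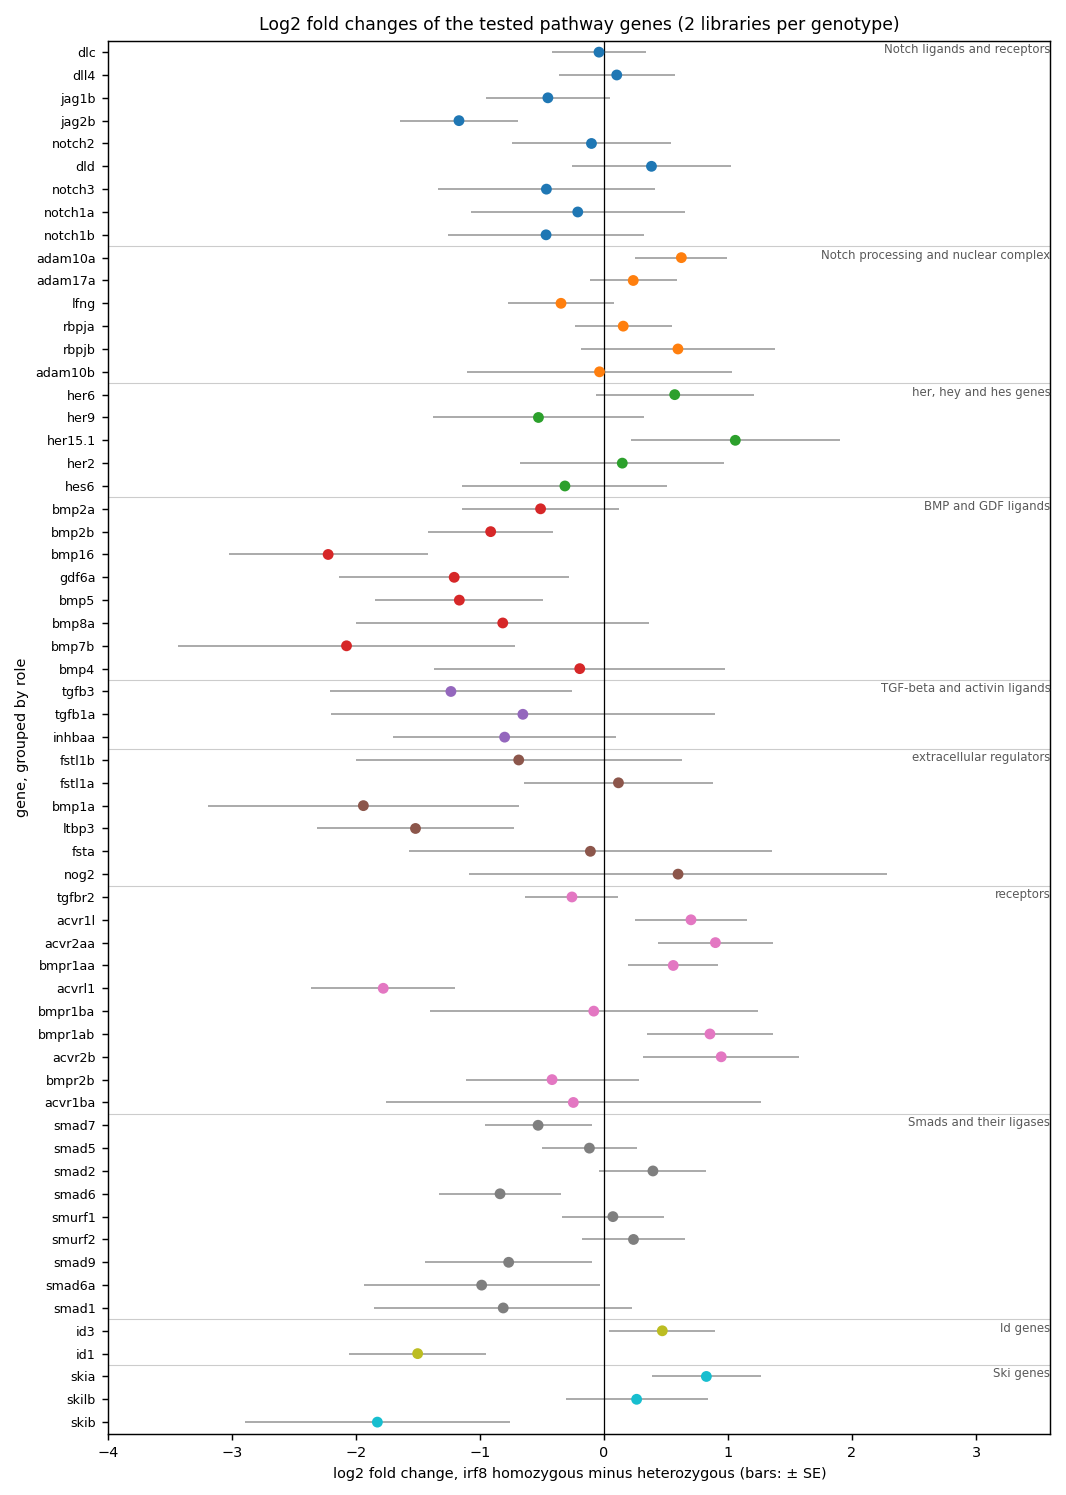
Log2 fold change, homozygous minus heterozygous (horizontal axis), of the 61 tested pathway genes other than those matched by name only (rows, grouped by role), with bars of ± 1 SE from edgeR's fit to 2 libraries per genotype. All 8 BMP and GDF ligands lie left of 0, beside 53.3% of all tested genes, but the filter acted on this count. Of the 8, 3 reached the filter's level in all 4 libraries, and bmp16 reached it in heterozygotes only. Without heterozygous replicate 2, 5 of 8 ligands were below 0. Of the 10 receptors 5 lie right of 0, and no gene was called.

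The receptor genes went both ways. Of 14, 10 were tested, 5 above 0 and 5 below, and 4 of the 5 above had non-overlapping libraries (acvr2aa, acvr2b, bmpr1aa and bmpr1ab; 40.0% of the 10, beside 19.9% of all tested genes). acvr2aa and acvr2b encode type II receptors for activins and BMPs, and bmpr1aa and bmpr1ab the BMP type I receptor known in mammals as BMPR1A. acvrl1, the type I receptor of endothelium, was the 1 receptor gene with both homozygous libraries lowest. Without heterozygous replicate 2, 7 of 10 receptor genes were above 0, among them acvr1ba, which has 0 counts in heterozygous replicate 1.

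acvr2aa (chromosome 9, 25572321 to 25633222, minus strand, 11 exons) had 15.7 and 25.6 CPM in homozygotes, against 8.19 and 13.9 CPM in heterozygotes. The log2 fold change was 0.90 ± 0.46 (SE, adjusted p 0.699), with 1.33 without heterozygous replicate 2 and 0.50 without homozygous replicate 2. acvr2b (chromosome 24, 41301445 to 41357193, minus strand, 12 exons) had 54 and 104 counts in homozygotes, against 40 and 22 counts in heterozygotes, or means of 8.80 ± 1.13 and 4.62 ± 3.13 CPM (SD, n = 2 each). Here heterozygous replicate 2 was the low library: the value was 0.94 ± 0.63 (SE) with all libraries, 0.36 without heterozygous replicate 2 and 1.90 without heterozygous replicate 1. bmpr1aa (chromosome 13, 22425341 to 22489352, plus strand, 13 exons) had 17.3 and 17.4 CPM in homozygotes, against 13.1 and 10.5 CPM in heterozygotes. Its homozygous libraries were the closest pair of any receptor named here, and its log2 fold change of 0.56 ± 0.36 (SE) ranged from 0.40 to 0.76 without each library. bmpr1ab, its duplicate (chromosome 12, 25859474 to 25931303, minus strand, 13 exons), had 6.52 and 12.0 CPM in homozygotes, against 4.78 and 5.47 CPM in heterozygotes. Its value of 0.85 ± 0.51 (SE) was 0.34 without homozygous replicate 2.

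acvr1l, the BMP type I receptor first described in fish as Alk8 (chromosome 2, 41674927 to 41694415, plus strand, 12 exons), had 16.1 and 28.4 CPM in homozygotes, against 11.1 and 16.3 CPM in heterozygotes. Homozygous replicate 1 fell just inside the heterozygous range, so the groups overlap (log2 fold change 0.70 ± 0.45, SE; 0.23 without homozygous replicate 2). tgfbr2, the type II receptor of TGF-beta, had the highest level of any receptor gene, 11.2 CPM per kb. It had 22.4 and 23.6 CPM in homozygotes, against 21.5 and 33.5 CPM in heterozygotes, with a log2 fold change of -0.26 ± 0.37 (SE) that was 0.090 without heterozygous replicate 2. bmpr1ba, mentioned after its values were seen, had 13.5 and 0.646 CPM in homozygotes, against 11.9 and 2.95 CPM in heterozygotes: replicate 1 was high and replicate 2 low in both genotypes.

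acvrl1, known in mammals as ALK1 (chromosome 23, 27909112 to 27930394, minus strand, 11 exons), had the smallest unadjusted p of all members, 0.0240. It had 37 and 32 counts in homozygotes, against 55 and 177 counts in heterozygotes. As normalised levels these are 5.48 and 2.95 CPM in homozygotes, against 9.39 and 19.4 CPM in heterozygotes, and the groups do not overlap. The log2 fold change was -1.78 ± 0.58 (SE, adjusted p 0.699), a 3.44-fold lower level, and -1.17 without heterozygous replicate 2. The endothelial marker sums followed the same order of libraries, though homozygous replicate 1 (67.5 CPM) was close to heterozygous replicate 1 (74.1 CPM). All 11 markers were below 0, beside 53.3% of all tested genes, with a median log2 fold change of -1.65. In 5 of the 11 (45.5%, beside 19.3% of all tested genes) both homozygous libraries were lowest, and in 6 the libraries overlapped. The part of endothelium in the acvrl1 value was not tested.

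Among the Smads and Smurf ligases, 9 of 11 genes were tested, 3 above 0 and 6 below. smad6 and smad6a, inhibitory Smads, had both homozygous libraries lowest (22.2% of the 9, close to the 19.3% of all tested genes). smad6a had 5 and 70 counts in homozygotes, against 47 and 60 counts in heterozygotes, and its homozygous replicate 2 (6.46 CPM) lay just under heterozygous replicate 2 (6.56 CPM). smad6 (chromosome 18, 19659155 to 19710383, plus strand, 4 exons) had 5.33 and 11.3 CPM in homozygotes, against 16.4 and 13.7 CPM in heterozygotes. The smad6 log2 fold change was -0.84 ± 0.49 (SE), and -0.38 without homozygous replicate 1. smad7, the other inhibitory Smad gene and the most abundant of this group at 10.3 CPM per kb, had 14.7 and 12.0 CPM in homozygotes, against 13.8 and 24.6 CPM in heterozygotes. Those libraries overlap, and its value of -0.53 ± 0.43 (SE) was -0.06 without heterozygous replicate 2. The receptor-activated Smads smad1, smad5 and smad9 (BMP branch) had overlapping libraries and log2 fold changes from -0.81 to -0.12, and smad2 (TGF-beta and activin branch) was at 0.39 ± 0.43. smurf1 and smurf2, ubiquitin ligases that limit BMP signalling, were at 0.07 and 0.24, with overlapping libraries.

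The Id genes, direct targets of BMP Smads that block basic helix-loop-helix factors, lay on both sides of 0. id1 (chromosome 11, 18541847 to 18542955, minus strand, 2 exons) had 102 and 107 counts in homozygotes, against 118 and 461 counts in heterozygotes, or means of 12.5 ± 3.70 and 35.3 ± 21.4 CPM (SD, n = 2 each). The normalised levels of the groups did not overlap, and the log2 fold change was -1.50 ± 0.55 (SE, adjusted p 0.699), with a range of -1.98 to -0.70 without each library; the value nearest 0 is that without heterozygous replicate 2. id3 (chromosome 17, 27253008 to 27254898, minus strand, 3 exons) had 78.8 and 42.2 CPM in homozygotes, against 39.8 and 47.5 CPM in heterozygotes, which overlap (0.47 ± 0.43; -0.022 without homozygous replicate 1). id3 had the highest level per kb of all 115 members, 44.8 CPM per kb, followed by id1 at 23.8. id4 had 3 and 4 counts in homozygotes, against 1 and 6 counts in heterozygotes, and was not tested. The difference between id1 and id3 was not tested.

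**Figure D4:**
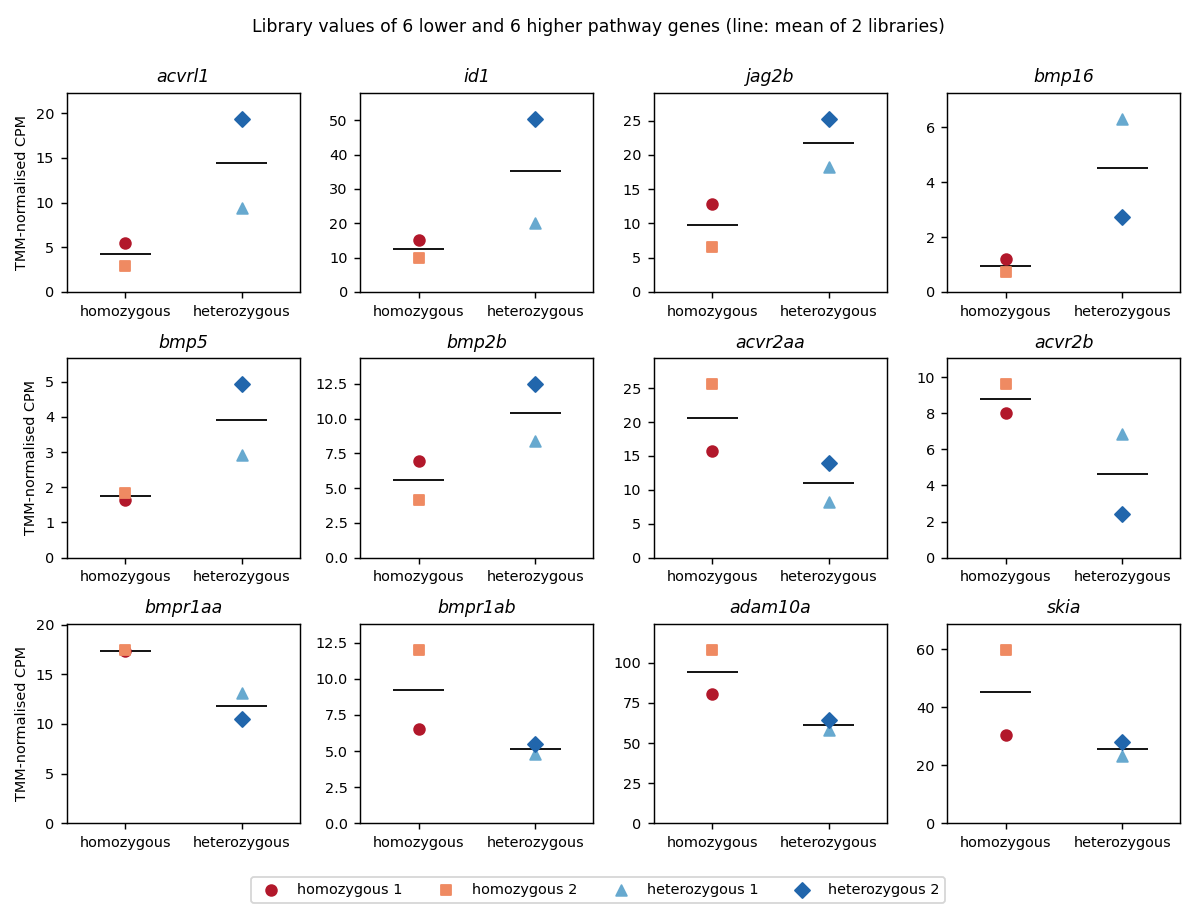
TMM-normalised CPM (vertical axes, starting at 0) of 6 pathway genes with lower and 6 with higher mean levels in homozygotes, with homozygous libraries on the left, heterozygous libraries on the right and lines at the mean of 2 libraries. Only members whose groups do not overlap are shown, while 49 of the 66 tested members overlap. For acvrl1 and id1 heterozygous replicate 2 lies far above heterozygous replicate 1.

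The Ski genes encode corepressors that bind Smads. skia (chromosome 8, 17360216 to 17480734, minus strand, 7 exons) had 30.5 and 59.7 CPM in homozygotes, against 23.0 and 27.9 CPM in heterozygotes, with no overlap. For skia the log2 fold change was 0.82 ± 0.44 (SE, adjusted p 0.699), and 0.26 without homozygous replicate 2. Its duplicate skib had 0.592 and 1.38 CPM in homozygotes, against 1.02 and 6.13 CPM in heterozygotes (-1.83 ± 1.07, and -0.03 without heterozygous replicate 2), and skilb was at 0.26 ± 0.57. The name pattern also took in 6 genes that are not core parts of these pathways, such as the RNA helicase genes skiv2l and skiv2l2 and the matrix protein gene tgfbi. Of these 5 were tested, and skiv2l had both homozygous libraries lowest (-0.44 ± 0.34). Without the 6, 22 of 61 tested members were above 0 and the median log2 fold change was -0.25.

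Further genes of the BMP and TGF-beta pathways came from lists chosen by function. Of 11 tested extracellular modulators and co-receptors 7 were above 0 and 4 below, and 0 were called. rgmb, a membrane-anchored BMP co-receptor, had 24.4 and 22.3 CPM in homozygotes, against 9.90 and 9.41 CPM in heterozygotes. Its log2 fold change of 1.27 ± 0.35 (SE, adjusted p 0.699) lay between 1.23 and 1.35 without each library, so its size changed little. itgb5, an integrin subunit gene, was at 1.14 ± 0.64, and 0.11 without homozygous replicate 2. bmper, a secreted BMP modulator of endothelium, had 1.63 and 1.57 CPM in homozygotes, against 3.76 and 3.17 CPM in heterozygotes (-1.11 ± 0.67), and dcn, the matrix proteoglycan decorin, was at -1.38 ± 0.58; dcn is also 1 of the stromal markers.

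Of 19 tested receptor and Smad cofactors 10 were above 0 and 9 below. The ubiquitin ligase genes wwp2 (0.63 ± 0.36) and rnf111 (0.84 ± 0.54; 0.20 without homozygous replicate 2), and on the other side zeb2a (-0.65 ± 0.59) and ppm1ab (-0.66 ± 0.78), had the smallest unadjusted p. Of 11 tested genes known to respond to BMP or TGF-beta, 8 were below 0 (72.7%, beside 53.3% of all tested genes), with a median log2 fold change of -1.54. Both homozygous libraries were lowest in 3 (27.3%, beside 19.3% of all tested genes) and highest in 1 (9.09%, beside 19.9%). Without heterozygous replicate 2, 5 of 12 were below 0 and the median was 0.036. ctgfa, a matricellular growth factor gene that TGF-beta induces, had 2.81 and 3.41 CPM in homozygotes, against 8.36 and 27.1 CPM in heterozygotes. For ctgfa the log2 fold change was -2.51 ± 0.67 (SE, adjusted p 0.699), and -1.42 without heterozygous replicate 2. tbx2b, a T-box gene whose mammalian counterpart BMP induces, had 3.41 and 2.21 CPM in homozygotes, against 8.36 and 8.86 CPM in heterozygotes. Its value of -1.62 ± 0.52 lay between -1.93 and -1.34 without each library. gata4, on the other side, had 3.26 and 9.32 CPM in homozygotes, against 1.37 and 2.30 CPM in heterozygotes (1.77 ± 0.76; 0.81 without homozygous replicate 2), and gata6, a factor of gut epithelium, was at 0.45 ± 0.50. In all, 85 other pathway genes were tested, 48 above 0 and 37 below, with 0 called; their libraries did not overlap for 14 higher (16.5%) and 13 lower (15.3%) genes, both shares under those of all tested genes (19.9% and 19.3%).

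**Figure D5:**
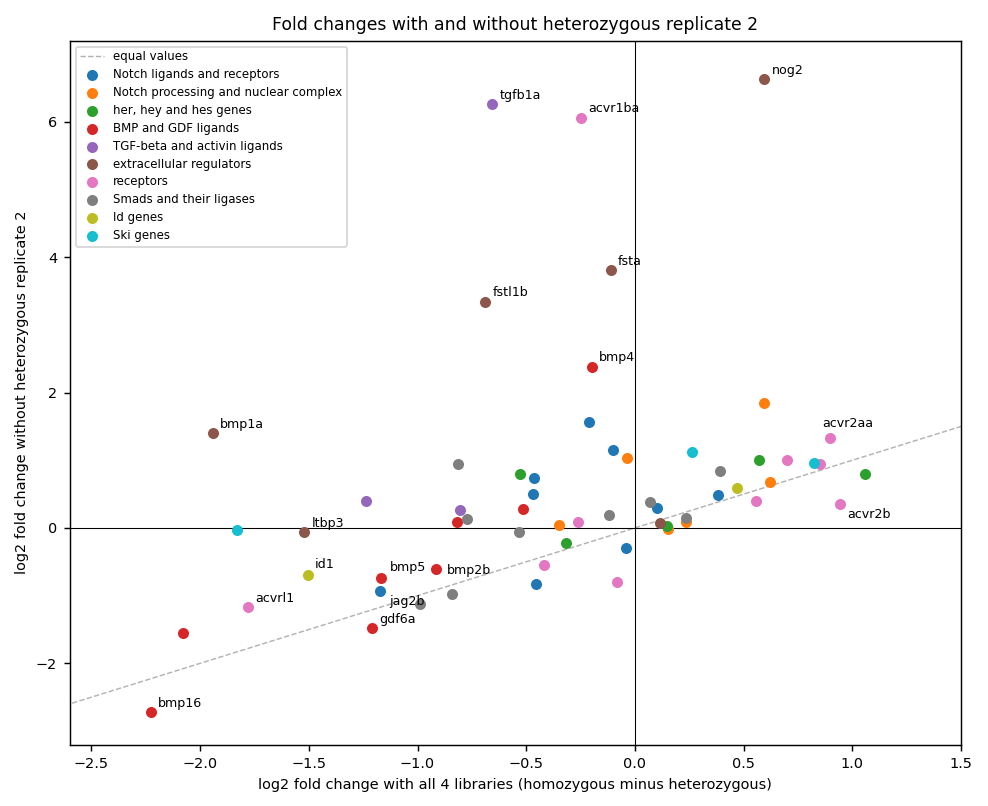
Log2 fold change, homozygous minus heterozygous, of the 61 tested pathway genes other than those matched by name only, with all 4 libraries (horizontal axis) and without heterozygous replicate 2 (vertical axis), coloured by role, with a dashed line of equal values. Most genes lie above the line; bmp16 and gdf6a are among those below it, and tgfb1a, acvr1ba and nog2 have 0 counts in the remaining heterozygous library, so their heights depend on the fit's prior count.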

How the data were processed

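The deposited table holds raw counts per gene as whole numbers, which the authors made with featureCounts (Subread 1.5.2) from paired reads on the danRer10 gene models, counting the reverse strand (setting 2), per the file headers. The sources used here do not name the aligner. Exon length per gene comes from the same table. A second deposited table of 76 genes holds 0 members and was not used. Reads shared by near-identical copies can be lost or split; PCR copies were not told apart, so the floor of 3 counts per library (0.277 to 0.512 CPM) covers counting error only.

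Genes were filtered with filterByExpr (minimum count 10, minimum total 15) and scaled by TMM. The 2 genotypes were compared in edgeR 4.0.16 under R 4.3.3 by the quasi-likelihood F test in a model holding genotype alone, with Benjamini-Hochberg adjustment over 9701 genes, called at 0.05; every adjusted p in the text is from this fit unless DESeq2 1.42.0 is named. The procedure was tested on simulated data. SEs are those implied by the F statistic. Each fish is 1 library. The p-values set the genotype difference against a spread estimated from 2 fish per genotype. That spread was drawn toward the trend over all tested genes, so much of it is borrowed from other genes.

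The members and gene lists were chosen with earlier results of these data known. Of 174 other pathway genes listed, 130 were found, 2 of them by synonym. Named genes are the 8 tested members with the smallest p in each direction, the smallest p and the highest level per kb in each role group, and the 2 smallest p per direction in each other list; 2 genes that this rule picks are not reported here. The alternatives were DESeq2's size factors, 2 other count filters, DESeq2's test, a block for replicate number, leaving out each library or the pancreas genes, and an adjusted p of 0.1. Promoter and protein sequences were not used here.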

Additional observations from a re-analysis of the deposited data

How the results depend on the processing

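With 2 fish per genotype and 0 genes called, the values describe these 4 libraries. No pathway gene was called under any alternative tried. Over all genes DESeq2's test called 55, and 0 to 45 were called by edgeR without 1 library; the 45 came without heterozygous replicate 1, where heterozygous replicate 2 stood alone and was assumed to vary like the homozygotes. Without 1 library, from 25 of 77 to 47 of 68 tested members were above 0 and their median ranged from -0.52 to 0.33. The highest values came without heterozygous replicate 2. With 1 library left out, from 5 of 8 to 9 of 9 tested BMP and GDF ligands were below 0 (14 of 15 with all libraries and no filter beyond 1 count). Receptor genes above 0 were 7 of 13 without heterozygous replicate 1 and 7 of 10 without heterozygous replicate 2. They were 8 of 13 without homozygous replicate 1 and 6 of 11 without homozygous replicate 2. The ligand and receptor counts were chosen for this check after seeing the data. Of the 66 tested members 25 had the same sign without each library in turn, 14 lower and 11 higher. They include the 11 lower and 6 higher members whose groups do not overlap, for which this was all but given in advance.

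Most of the alternatives refit the same 4 libraries and could hardly turn a sign, so a count over all of them does not measure stability. Of 530 values of the 53 named genes under the alternatives, 13 changed sign. With 1 library left out they lay in these ranges: dlc -0.30 to 0.29, bmp2a -0.98 to 0.28, fstl1b -1.58 to 3.34, tgfbr2 -0.51 to 0.090, tgfb3 -2.17 to 0.40, her6 -0.46 to 1.18, id3 -0.022 to 0.85, rfng -1.19 to 1.71, ctbp2a -0.22 to 2.46, ppm1ab -1.19 to 0.32 and sox9b -1.15 to 0.23. With the replicate number as a block fstl1b was at 0.25, 30 of 66 members were above 0 and their median was -0.07. The labels name no pairing of fish with equal replicate numbers. Replicate 1 minus 2 correlated at r = 0.0643 between genotypes across 9701 genes, which cannot show whether such fish shared a batch or sex.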

Other observations

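The pathway genes left untested for low counts numbered 49, of which 13 had no count in any library: the her genes her1, her3, her5, her8.2, her13 and her4.3, the ligand genes gdf2, gdf6b and gdf9, the inhibitor genes nog1 and grem1a, and fstl5 and hesx1. The other 36 had at most 40 counts in any library. Heterozygous replicate 2, the deepest library, had the highest normalised level for 22 of these 36 (61.1%). Heterozygous replicate 1, the shallowest, had the lowest level or shared it with another library for 24 (66.7%). The 24 include ties such as bmp7a, gdf3 and heyl, where other libraries had no count either. The 24 is therefore not a count of genes lowest in that library alone. Of the 36, mean levels were lower in homozygotes for 26 and higher for 10. smad3b, a TGF-beta branch Smad gene, had 4 and 11 counts in homozygotes, against 3 and 40 counts in heterozygotes. fstb, a follistatin gene, had 1 and 3 counts in homozygotes, against 5 and 29 counts in heterozygotes. smad3a had 7 and 24 counts in homozygotes, against 2 and 7 counts in heterozygotes. These genes were chosen after their values were seen, and no test was made.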
